A study of Mustela putorius furo with 10 samples.

Results

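Leukocyte homing receptors are the surface proteins with which blood leukocytes find and enter tissues. The genes described here were listed by symbol as CCR7, S1PR1, CXCR4, CXCR3, CCR6, ITGA4 and ITGAL, together with KLF2, the transcription factor known for keeping S1PR1 transcribed in resting T cells. They were looked up through the RefSeq ferret gene name of the accession that each array probe carries, and 7 of the 8 listed genes were on the array. The accession of KLF2 was not among those on the array, so KLF2 was not analysed here. All 7 others were kept by the rule that the green signal be well above background on at least 4 of 10 arrays, and they stand among 26303 tested genes, of which 9276 had a symbol.

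The samples were peripheral blood mononuclear cells (PBMC, the lymphocytes and monocytes that a Ficoll gradient separates from blood) of male ferrets (Mustela putorius furo) 3 months of age. Control animals were kept at 22 °C and cold animals at 4 °C for 1 week. Each group had 7 animals, of which 6 control and 4 cold animals were hybridised, 1 array each. Individual housing is stated beside the cold group, and whether it also held for the controls is not clear. If it did not, temperature and housing cannot be told apart. All animals were anaesthetised with ketamine and medetomidine and had free access to food. On every array the RNA of 1 ferret carried the green dye Cy3 and a common reference pool the red dye Cy5, so a level is given as the log2 ratio of Cy3 over Cy5, with 0 meaning the level of the pool. These ratios do not order the genes among each other. Cold array 3 stood apart from the other cold arrays in its T cell markers, whose mean ratio was -0.84 there and -0.10 to -0.01 on the others, so each receptor is also given without it.

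Lymphocytes cycle between blood and lymphoid organs. CCR7 brings naive and central memory T cells into lymph nodes along the chemokines CCL19 and CCL21, and S1PR1 lets them leave again towards the sphingosine-1-phosphate of blood and lymph. CXCR4 holds cells in the bone marrow through CXCL12, CXCR3 directs effector T cells to inflamed tissue, and CCR6 is carried by B cells and some T helper cells. ITGA4 and ITGAL are integrin alpha chains, which make leukocytes adhere firmly to the vessel wall once chemokine receptors have activated them.

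The comparison of cold with control asked whether the transcripts of these receptors in circulating cells differed after 1 week at 4 °C. CCR7 fell in the cold group, to 0.628 times the control ratio, at an unadjusted limma p below 0.01, and S1PR1 was lower without passing. The threshold of 0.01 is that of the study's methods, and in the methods' t-test CCR7 did not pass it either. The ratios of CXCR4, CCR6 and ITGA4 were lower by less than the spread between animals, and the changes of CXCR3 and ITGAL were the nearest to 0. Thus 5 of the 7 genes had a negative change and 1 passed the unadjusted threshold in limma, in the lower direction. Of all genes 8.64% passed it, 3.43% lower and 5.21% higher in cold. Here a gene is said to rise or fall where it passed that unadjusted threshold. The median change was -0.26 for the 7 receptors and -0.01 for all genes, on the log2 ratio scale. No receptor passed a Benjamini-Hochberg adjusted p of 0.05 in limma, and neither did any of the 26303 genes (0%), whose lowest adjusted p was 0.0576, while 6501 genes had an unadjusted p below 0.05. The methods' t-test gave 0 genes at the adjusted threshold as well. In none of the 7 genes were the cold and control arrays fully apart in the ratio, whereas 5.22% of all genes were fully apart, 2.15% lower in cold. PBMC are a mixture, and in such bulk samples fewer cells of a type and less RNA per cell cannot be told apart.

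**Figure D1:**
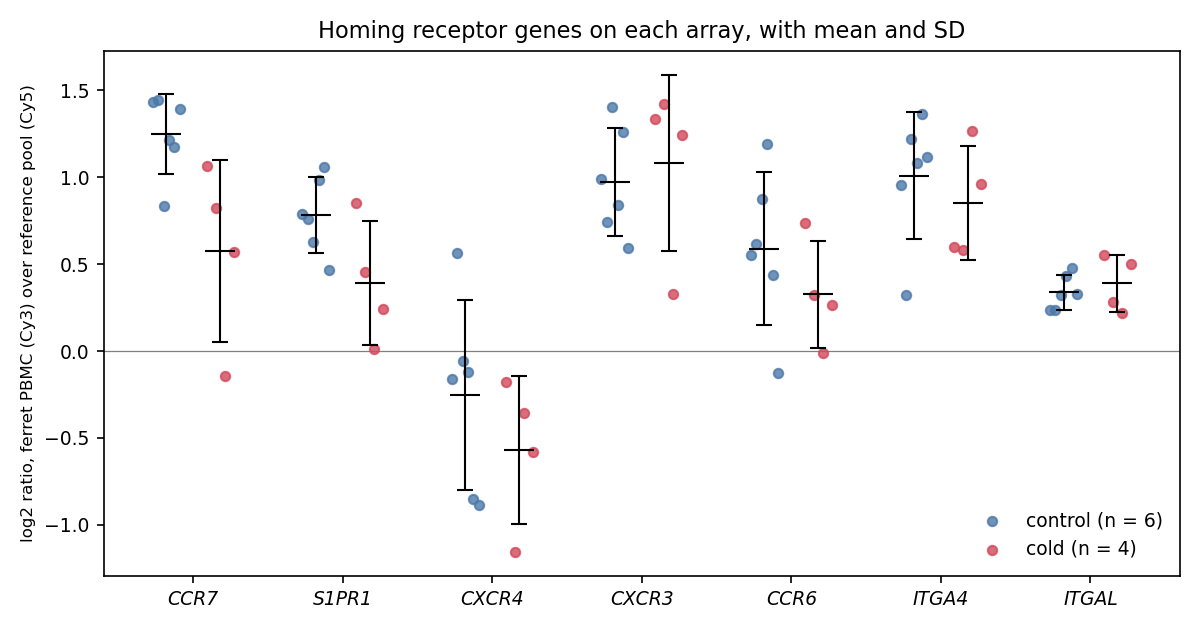
Log2 ratio of ferret PBMC RNA (Cy3) over the reference pool (Cy5) for the 7 homing receptor genes, 1 point per array, 6 control (blue) and 4 cold (red); black bars give the mean and SD. CCR7 averaged 1.25 in control and 0.58 in cold, and the groups overlapped in every gene.

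CCR7, the lymph node entry receptor, had ratios of 1.07, 0.82, -0.15 and 0.57 on cold arrays 1 to 4. Its control arrays ranged from 0.83 to 1.44 with a median of 1.30. Of the cold arrays, 3 lay below the lowest control array and all 4 below the control median, and cold array 3 was the lowest. Control animals averaged 1.25 ± 0.23 (SD, n = 6) and cold animals 0.58 ± 0.52 (SD, n = 4), which is a difference of -0.67 on the log2 scale with a standard error of 0.21. In limma the unadjusted p was 0.00874 and the adjusted p 0.111, in the methods' t-test the unadjusted p was 0.0227, and the exact permutation test (two-sided, 210 splits of the arrays, smallest possible p 0.00476) gave 0.00952. All 4 CCR7 probes moved the same way, by -0.94 to -0.45. The reference channel was bright for this gene, with every spot well above background on all 10 arrays. Without cold array 3 the change was -0.43 and the unadjusted limma p 0.0194, so the call at 0.01 was lost. The call was also lost, at changes between -0.69 and -0.63, without control array 1, 2, 4, 5 or 6 and without cold array 4. By position on the slide, it was -0.43 at position 1 (4 control and 2 cold arrays) and -0.79 at position 2 (2 and 2 arrays).

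S1PR1, the receptor for exit from lymphoid organs, had ratios of 0.85, 0.46, 0.01 and 0.24 on cold arrays 1 to 4, against 0.47 to 1.06 (median 0.77) on the control arrays. As for CCR7, 3 cold arrays lay below the lowest control array and cold array 3 was the lowest, while cold array 1 stood inside the control range. The group averages were 0.78 ± 0.22 (SD, n = 6) for control and 0.39 ± 0.36 (SD, n = 4) for cold, a difference of -0.39 with a standard error of 0.16. In limma the unadjusted p was 0.0359 and the adjusted p 0.175, and the exact permutation p was 0.0667. All 4 probes were lower in cold, by -0.43 to -0.32. Within slide positions the change was -0.10 at position 1 and -0.72 at position 2. Without cold array 3 it was -0.26 (limma p 0.129), and without cold array 1 it was -0.54 and passed 0.01 (limma p 0.00389).

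For S1PR1 the size of the change depended on the channel. In the reference pool its spots were mostly well above background on only 2 of 6 control arrays, but on all 4 cold arrays. Read from Cy3 alone (log2 intensity, quantile normalised between arrays), S1PR1 was 9.86, 9.60, 9.08 and 9.21 on cold arrays 1 to 4 and 10.12 to 10.85 (median 10.42) on the control arrays. On this scale the 4 cold arrays all lay below the 6 control arrays. The log2 change was -1.05 with a standard error of 0.18, corresponding to 0.483 times the control intensity, with a limma adjusted p of 0.0342 over all genes and an exact permutation p of 0.00476, the smallest the design allows. It held the 58th place by p among all genes, of which 2.82% passed the adjusted threshold on Cy3 alone and 9.84% the unadjusted 0.01. In the methods' t-test on the same Cy3 values its adjusted p was 0.0843, and none of all genes passed the adjusted threshold, against 741 in limma. With cold array 3 left out the change was -0.93 and limma's adjusted p 0.0872, and within positions it was -0.79 and -1.28. In Cy5 alone S1PR1 differed by 0.00 between the groups (limma p 0.988). The part of the dim reference channel in the smaller ratio change was not tested.

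The other receptors were read on Cy3 alone in the same way. CCR7 differed by -0.87 (standard error 0.29, limma p 0.0110, adjusted p 0.106) which lies just outside the unadjusted threshold, with an exact permutation p of 0.0286. In the methods' t-test on the same Cy3 values CCR7 had a p of 0.0315 and an adjusted p of 0.188. ITGAL differed by -0.40 (limma p 0.0255), and CCR6 by -0.65, CXCR3 by -0.31, CXCR4 by -0.28 and ITGA4 by -0.20, each with a limma p above that of ITGAL. All 7 genes were thus lower in cold on Cy3 alone, including the 2 whose ratio change was positive, and S1PR1 was the only one of them past 0.01. The same genes differed by -0.05 to 0.08 in Cy5 alone, with none past 0.01 in limma (1.79% of all genes).

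**Figure D2:**
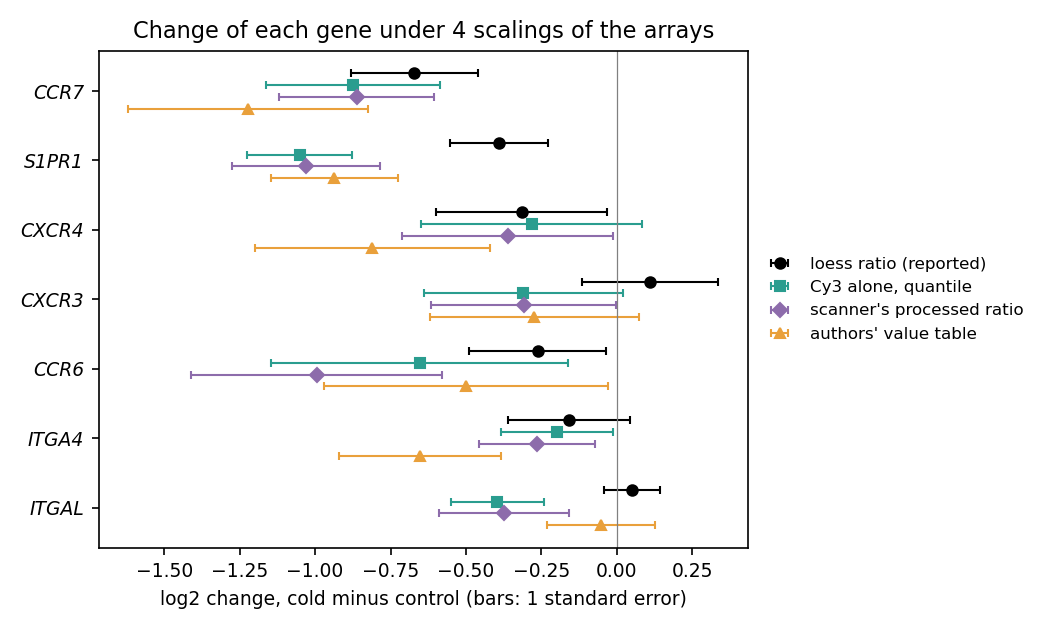
Log2 change (cold minus control, with 1 standard error) of each receptor gene under 4 ways of scaling the arrays: the loess ratio reported in the text, Cy3 alone, the ratio from the scanner's processed signals, and the authors' value table. CCR7, S1PR1, CXCR4, CCR6 and ITGA4 were negative under all 4, whereas CXCR3 and ITGAL were above 0 in the loess ratio alone.

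Among the remaining chemokine receptors, CXCR4, the bone marrow retention receptor, had ratios of -0.18, -1.15, -0.36 and -0.58 on the cold arrays and -0.89 to 0.57 (median -0.14) on the control arrays. Both groups were wide: control arrays 5 and 6 lay at -0.85 and -0.89, far below control array 2 at 0.57, and cold array 2 was the lowest of all. The change of -0.32 (standard error 0.28) had a limma p of 0.289 and an exact permutation p of 0.362. It was -0.51 at slide position 1 and -0.01 at position 2. Leaving out an array gave -0.15 without control array 2, -0.12 without cold array 2, -0.39 without cold array 3 and -0.45 without cold array 1. It was -0.81 (limma p 0.0580) in the authors' table and -1.34 (limma p 0.0297) with median centring.

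CCR6 had ratios of 0.73, 0.32, -0.01 and 0.27 on the cold arrays and -0.13 to 1.19 (median 0.58) on the control arrays. The cold arrays lay wholly inside the control range, whose lowest point was control array 6. The change was -0.26 (standard error 0.23, limma p 0.270, exact permutation p 0.333), with -0.03 at position 1 and -0.53 at position 2, and -0.15 without cold array 3. With 1 array left out it lay between -0.41 (without control array 6, limma p 0.0497) and -0.14 (without control array 4). With the scanner's processed signals it was -0.995 (limma p 0.0356), with median centring -0.82 and in the authors' table -0.50.

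CXCR3, the receptor of effector T cells, had ratios of 1.34, 1.42, 0.33 and 1.24 on the cold arrays and 0.59 to 1.41 (median 0.92) on the control arrays. Cold array 3 fell below all control arrays, while cold arrays 1 and 4 sat in the upper part of the control range and cold array 2 just above it. The change was 0.11 (standard error 0.23, limma p 0.632, exact permutation p 0.671), and it took opposite signs at the slide positions, 0.59 and -0.55. Without cold array 3 it was 0.36 (limma p 0.0606).

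The integrin alpha chains did not pass 0.01. ITGA4, which pairs with ITGB1 to bind fibronectin and VCAM1 and with ITGB7 to bind MADCAM1, had ratios of 0.60, 0.58, 1.27 and 0.96 on the cold arrays and 0.32 to 1.36 (median 1.10) on the control arrays. Cold array 3, the lowest for 5 of the 7 genes, was the highest cold array for ITGA4, and control array 2 was the lowest of all. The change was -0.16 (standard error 0.20, limma p 0.449, exact permutation p 0.510), with -0.28 and -0.18 at the slide positions. With 1 array left out it lay between -0.30 (without cold array 3) and -0.07 (without cold array 2), and with array weights it was -0.05. It was -0.65 (limma p 0.0307) in the authors' table and -1.16 (limma p 0.0186) with median centring.

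ITGAL, which pairs with ITGB2 to bind ICAM1 and other ICAM proteins, had ratios of 0.55, 0.28, 0.22 and 0.50 on the cold arrays and 0.23 to 0.48 (median 0.33) on the control arrays. It was the most even of the 7 genes, with a control SD of 0.10. The change was 0.05 (standard error 0.09, limma p 0.591, exact permutation p 0.533), with 0.11 and -0.04 at the slide positions and 0.11 without cold array 3. Of its 8 probes, 3 were lower in cold. Its reference spots were mostly above background on 2 control and 2 cold arrays.

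Of the beta chains that complete these integrins, none passed 0.01 with all arrays and no block. ITGB1 had a change of 0.45 (limma p 0.0189, and 0.00554 without control array 6), ITGB2 of 0.22 (limma p 0.185, but 0.00151 at a change of 0.41 without cold array 1) and ITGB7 of -0.06 (limma p 0.705). For ITGB1, cold arrays 1 to 4 read 0.55, 0.36, 0.75 and 0.90 and the control arrays -0.14 to 0.60. With median centring, which moves the median of all genes to -0.43, ITGB1 and ITGB2 had negative changes.

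CCR7 and S1PR1 varied together over the arrays. Over the 10 arrays their ratios had a Pearson r of 0.77, and their deviations from the group means an r of 0.61. S1PR1 and CCR6 had an r of 0.70, whereas CCR7 and ITGA4 had an r of -0.32, and -0.71 for the deviations. These values describe 10 arrays that share a reference pool and a loess correction.

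The genes most like each receptor were sought among 8340 tested genes with a symbol. CCR7 was closest to CCND2, a cyclin (r = 0.99), HEATR1 (r = 0.96) and LTB, which encodes lymphotoxin beta, a membrane cytokine of lymphocytes (r = 0.95). The change of LTB was -0.65 (limma p 0.000769, adjusted p 0.0705) and that of CCND2 -0.56 (limma p 0.0111). CCR6 was closest to CXCR5 (r = 0.98), the receptor with which B cells enter follicles, CD79A (r = 0.95), a chain of the B cell receptor, and PLD4 (r = 0.94). S1PR1 was closest to GPATCH1, GART and RPS15A (r = 0.92 each), and CXCR3 to TRIM21 (r = 0.94), ADPRH (r = 0.93) and HSPBP1 (r = 0.92). ITGA4 was closest to TRA2A (r = 0.91), GAS2L3 and RPF1 (r = 0.90 each), and ITGAL to PIP4K2C (r = 0.95), TRAF4 (r = 0.92) and SMUG1 (r = 0.91). CXCR4 had the loosest likeness, with PTX3 at 0.86 and ZMYND10 and GLG1 at 0.78 each.

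Blood cell markers also differed between the groups. Of 12 tested T cell markers, 11 had a negative change and 1 passed the unadjusted 0.01 in limma, LCK, the kinase at the T cell receptor (-0.75, limma p 0.0015). Of all genes 8.64% passed this threshold, 3.43% lower in cold. The median change of the 12 markers was -0.50, against -0.01 for all genes. On Cy3 alone 8 of the 12 fell at 0.01, among them CD3E, CD3G, CD4 and LCK, with a median change of -0.70, while 4.36% of all genes fell. The mean ratio of the 12 lay between 0.01 and 0.32 on the control arrays and between -0.84 and -0.01 on the cold arrays, with cold array 3 at -0.84. Their summed Cy3 intensity was 116767 to 160414 in control and 48571 to 110860 in cold. CCR7 followed this mean with an r of 0.89 over 10 arrays (0.79 for the deviations, and 0.69 without the 2 arrays farthest from the median), and S1PR1 with an r of 0.67 (0.43 for the deviations, and 0.03 without those 2 arrays). With the B cell mean S1PR1 had an r of 0.65 (0.65 for the deviations, and 0.71 without the 2 farthest arrays). Taken array by array, CCR7 less the T cell mean averaged 1.03 ± 0.21 (SD, n = 6) in the control group against 0.83 ± 0.26 (SD, n = 4) after cold, differing by -0.21, and S1PR1 differed by 0.07 less the T cell mean and by -0.23 less the B cell mean. CCR7 less the B cell mean differed by -0.51. Less the T cell mean, the other receptors differed by 0.15 (CXCR4), 0.20 (CCR6), 0.31 (ITGA4), 0.51 (ITGAL) and 0.57 (CXCR3). The part of the T and B cell markers in the changes of CCR7 and S1PR1 was not tested further.

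The list for naive and central memory T cells, the cells that carry most CCR7, shares IL7R with the T cell list. Of its 5 tested genes 4 were lower and 1 passed the unadjusted 0.01 in limma, SATB1 (-0.47, p 0.000776), with a median change of -0.39. CCR7 had an r of 0.83 with their mean over the arrays, and of 0.40 without the 2 arrays farthest from the median. On Cy3 alone 1 of the 5 fell, CD27, with a median change of -0.65.

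CCR6 instead followed the B cell markers. The mean of the 6 tested B cell markers ranged from -0.10 to 1.09 on the control arrays, with control array 6 the lowest, and from 0.25 to 0.73 on the cold arrays, and CCR6 had an r of 0.96 with it, also for the deviations from the group means. None of the 6 passed 0.01 in the loess ratio or on Cy3 alone, and their median change was -0.11 in the ratio and -0.49 on Cy3 alone, where CCR6 differed by -0.65. CCR6 less the B cell mean averaged 0.01 ± 0.11 (SD, n = 6) for the control animals and -0.10 ± 0.13 (SD, n = 4) for the cold ones. ITGA4 in turn followed the 4 pan-leukocyte genes, among them PTPRC (CD45), with an r of 0.92, and none of those 4 passed 0.01 (median change -0.07).

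**Figure D3:**
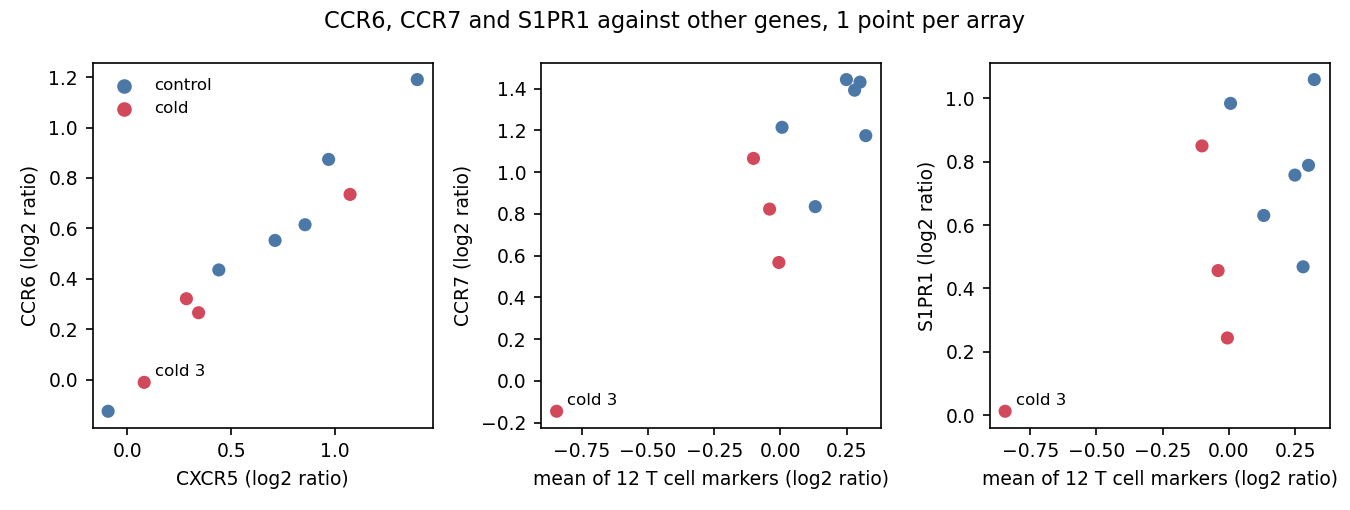
Log2 ratio of CCR6 against CXCR5, and of CCR7 and S1PR1 against the mean of 12 T cell markers, 1 point per array (blue, control; red, cold). CCR6 lay close to a line with CXCR5 in both groups (r = 0.98), and cold array 3 was the lowest for CCR7, S1PR1 and the T cell mean.

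Some markers of other blood cells rose and some fell. In the loess ratio 5.21% of all genes rose and 3.43% fell at the unadjusted 0.01. Of 7 tested neutrophil genes, 4 rose at the unadjusted 0.01 (S100A8, S100A9, MPO and PADI4), with a median change of 0.81 and means of 0.36 to 1.18 on control and 1.54 to 1.81 on cold arrays. Of 8 monocyte genes 2 rose, CD14 and VCAN (median change 0.47), and of 6 platelet genes 2 rose (median change 0.87). In the erythroid list, of 5 genes HBM fell and EPOR rose, and the mean of the list was 0.19 to 0.92 on control and -0.65 to 0.07 on cold arrays. None of 5 cytotoxic and NK cell genes passed 0.01 (median change 0.09). Over the 10 arrays CXCR3 had its highest r with that last list (0.66, with 0.65 for the deviations and 0.50 without the 2 farthest arrays). For the deviations its r with the T cell mean was higher (0.70). Without the 2 farthest arrays its r with the B cell mean was higher (0.52). On Cy3 alone 5 neutrophil and 3 monocyte genes rose and 2 erythroid genes fell, and no platelet, B cell, cytotoxic or pan-leukocyte gene passed 0.01. Among all genes 9.84% passed it on this scale, 4.36% lower in cold. The summed Cy3 intensity of the neutrophil genes was 173391 to 271760 in control and 349498 to 507050 in cold. CCR7 had an r of -0.70 with the neutrophil mean (-0.25 for the deviations, and -0.92 without the 2 arrays farthest from its median) and of -0.72 with the monocyte mean (-0.55 for the deviations, and -0.03 without the 2 farthest arrays). With the erythroid mean the r of CCR7 was 0.74 (0.44 for the deviations, and 0.65 without the 2 farthest arrays). With the platelet mean it was -0.68 (-0.38 and -0.41). The part of all these cells in the change of CCR7 was not tested. A Ficoll gradient is meant to remove mature neutrophils from PBMC.

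**Figure D4:**
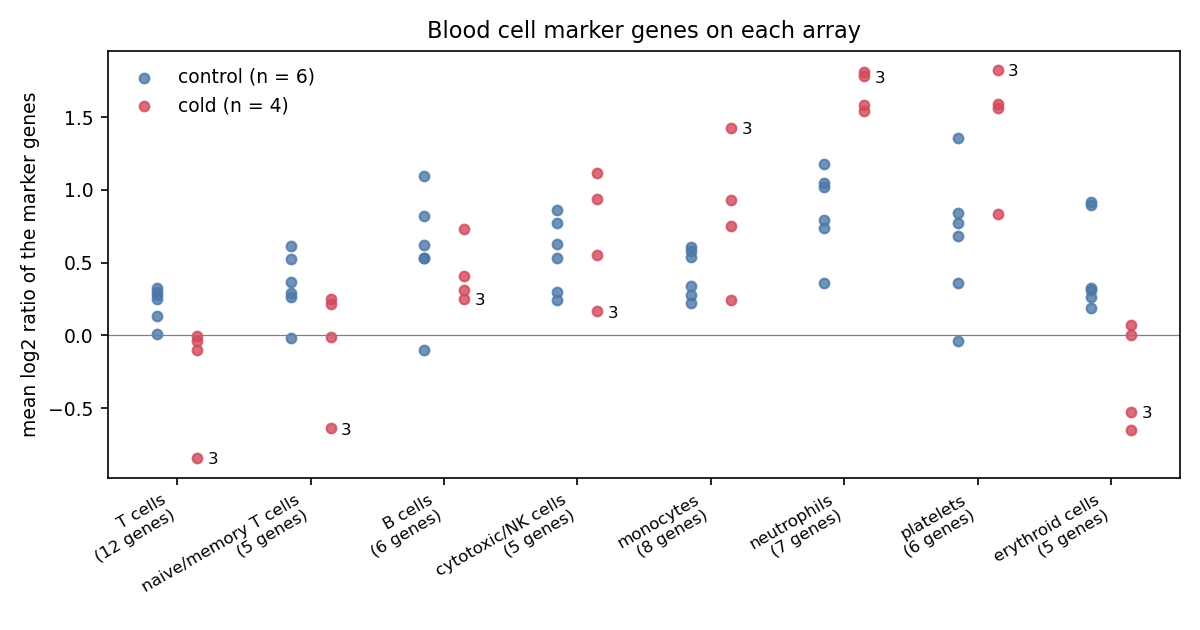
Mean log2 ratio of the tested marker genes of 8 blood cell types on each array (blue, control; red, cold; the digit 3 marks cold array 3). The T cell mean was 0.01 to 0.32 in control and -0.84 to -0.01 in cold, and the neutrophil mean 0.36 to 1.18 and 1.54 to 1.81.

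Genes that work with these receptors were taken from lists. The counts of calls in all these lists stand beside 5.21% of all genes higher and 3.43% lower at 0.01 in the ratio. On Cy3 alone the share of all genes was 9.84%, with 4.36% lower. Of 13 listed ligand genes, 5 were not matched by accession and 3 were under the filter on dim probes. Of the 5 tested, CCL19, a ligand of CCR7, fell by 0.76 on the log2 scale (limma p 0.00775), and FN1, fibronectin, the matrix ligand of ITGA4 with ITGB1, rose by 1.01 (p 0.00464). Both were well under the level of the pool, with CCL19 at -3.59 to -2.75 on the cold arrays and a control mean of -2.35, and FN1 at -1.70 to -0.60 on the cold arrays and a control mean of -2.22. The CCL19 call was lost without control array 1, 2, 3 or 6 or cold array 1 or 3 (changes -0.74 to -0.60), and that of FN1 without control array 3 or cold array 3 or 4 (changes 0.81 to 0.99). On Cy3 alone CCL19 differed by only -0.19 (p 0.0785) and with the scanner's processed signals by -0.34 (p 0.0406), and neither CCL19 (p 0.0215) nor FN1 (p 0.0153) passed in the methods' t-test. With median centring neither passed 0.01. FN1 rose more on Cy3 alone (1.91, p 0.00102, adjusted p 0.0453) and with the scanner's processed signals (1.81, p 0.0022). ICAM2, a ligand of ITGAL, also passed on Cy3 alone (-0.25, limma p 0.00998), with a ratio change of -0.04 (limma p 0.601). The CCL19 call was also lost with the slide position as a block (p 0.0132), with no filter on dim probes (p 0.0104) and in the authors' table (p 0.0102), and that of FN1 with array weights (p 0.0263). The median of the 5 was -0.04.

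Of 14 other chemokine and chemoattractant receptors, 2 rose and none fell at the unadjusted 0.01 in the loess ratio, whereas on Cy3 alone 1 rose, CCR10, and 2 fell, CX3CR1 (-0.58, p 0.0011) and CCR4 (-0.38, p 0.0027). CCR10, a skin and mucosal homing receptor, rose by 0.86 (limma p 0.00136), with control arrays between 0.16 and 1.28 and every cold array at 1.20 or above. It missed 0.01 with median centring (0.42, p 0.182) and in the methods' t-test on Cy3 alone (p 0.0121). CCRL2, which presents chemerin and does not itself signal, rose by 0.71 (p 0.0035), a call lost without cold array 3 (0.59) or 4 (0.58). It was also lost on Cy3 alone (0.53, p 0.166), with the scanner's processed signals (0.31, p 0.28), with median centring (0.44, p 0.24), in the authors' table (0.78, p 0.0302) and in the methods' t-test (p 0.0109). The median over the 14 was -0.05. The 9 tested genes of the sphingosine-1-phosphate pathway held no call in the loess ratio and 1 on Cy3 alone. CD69, which binds S1PR1 and removes it from the surface of activated lymphocytes, differed by -0.42 (p 0.0257), and SPHK1, a kinase that makes sphingosine-1-phosphate, by 0.22 (p 0.261) in the ratio, while on Cy3 alone SPHK1 rose by 1.01 (p 0.000113). The median of the 9 was 0.07.

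In the 13 tested genes of integrin activation, calls went in both directions. SKAP2, an adaptor of myeloid cells, rose by 0.71 (limma p 0.00211), with 1.14 to 2.04 on the cold arrays above 0.40 to 1.04 on the control arrays, but missed 0.01 with the scanner's processed signals (0.44, p 0.0511) and in the authors' table (0.38, p 0.14). FERMT3 (kindlin-3), which binds integrin beta chains, rose by 0.50 (p 0.00536), a call lost without control array 1, 2 or 6 or cold array 1 or 4 (changes 0.34 to 0.49). It was 0.12 (p 0.475) on Cy3 alone, 0.18 (p 0.377) with the scanner's processed signals and 0.17 (p 0.373) in the authors' table, and missed 0.01 in the methods' t-test (p 0.0123). SKAP1, the adaptor of T cells, fell by 0.45 on the log2 scale (p 0.00856), with the lowest value on cold array 3 at -0.33, and the change was -0.30 (p 0.0209) without that array. This call was lost too, at -0.47 to -0.42, without control array 1, 2, 3, 4 or 6 or cold array 4, in the methods' t-test (p 0.0176) and with median centring (-1.45, p 0.0117). With median centring SKAP2 and FERMT3 did not stay above 0, and the median of the 13 was -0.05. On Cy3 alone 1 gene of this list rose in limma, SKAP2, and 2 fell, SKAP1 and STK26. In the methods' t-test on Cy3 alone neither SKAP2 (p 0.0226) nor SKAP1 (p 0.0115) passed 0.01. None of 10 other integrin and adhesion genes passed 0.01 in the ratio. PECAM1, an adhesion molecule of platelets, leukocytes and endothelium, came closest with 0.55 (p 0.0152), and passed on Cy3 alone (0.70, p 0.0089), and the median was 0.07.

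**Figure D5:**
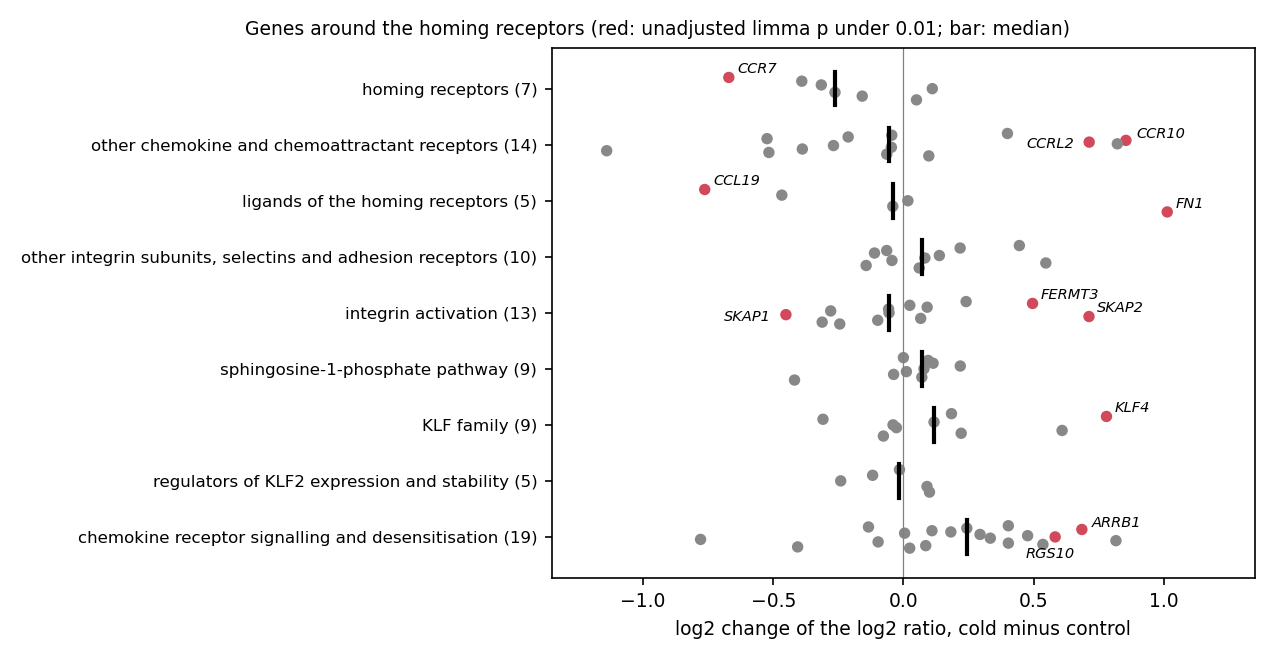
Log2 change (cold minus control, log2 ratio) of each tested gene in 9 lists, the homing receptors first, with the number tested in brackets. Red points had an unadjusted limma p under 0.01 and are named, grey points did not, and black bars give the median of each list, which was -0.26 for the homing receptors and 0.24 for receptor signalling and desensitisation.

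Signalling downstream of the receptors had a median change of 0.24 over 19 genes, of which 15 had a positive change, but a median of 0.02 on Cy3 alone. ARRB1 (beta-arrestin 1), which uncouples and internalises activated receptors, rose by 0.69 (limma p 0.00136), from between 0.00 and 0.47 on the control arrays to between 0.44 and 1.39 on the cold arrays. RGS10, which speeds up the switching off of G proteins, rose by 0.58 (p 0.00316), a call lost without cold array 1, 3 or 4 (changes 0.47 to 0.56). The RGS10 call was also lost on Cy3 alone (p 0.085), with the scanner's processed signals (0.31, p 0.248), in the authors' table (p 0.0588) and with median centring (0.23, p 0.473), and that of ARRB1 on Cy3 alone (0.70, p 0.0196) and with median centring (0.47, p 0.124). No gene of this list fell at 0.01 in the ratio, whereas on Cy3 alone RAC2, a GTPase of leukocyte migration, fell by 0.40 (p 0.00634) and PREX1 rose.

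KLF2 itself had no probe that the gene table names. Of 9 tested members of its family, KLF4, a factor of monocyte differentiation, rose by 0.78 (limma p 0.00705), with 1.56 on cold array 3 and 0.23 to 0.58 on the other cold arrays, against -0.47 to 0.36 on the control arrays. Without cold array 3 the change was 0.50 (p 0.0124), and the call was also lost without cold array 2 or control array 2, 4, 5 or 6 (changes 0.70 to 0.83). It was lost as well in the methods' t-test (p 0.02, and p 0.0123 on Cy3 alone), with the median over probes (0.76, p 0.0103), in the authors' table (0.57, p 0.105) and with median centring (0.15, p 0.744). In limma KLF4 did pass 0.01 on Cy3 alone (0.88, p 0.00329) and with the scanner's processed signals (0.83, p 0.00757). The median of the family was 0.12, and KLF5 passed on Cy3 alone (0.57, p 0.00083) with a ratio change of -0.31. Of 5 tested regulators of KLF2 none passed 0.01. SMURF1, a ubiquitin ligase, differed by -0.24 (p 0.0384), and MAPK7, the kinase known as ERK5, by -0.12 (p 0.171), with a median of -0.01.

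The arrays themselves bear on these values in 2 ways. The share of spots with Cy3 above background was 50.4 to 63.5% in control and 58.0 to 61.1% in cold, and with Cy5 above background 27.0 to 54.9% and 40.5 to 64.0%, so the share for the reference channel was uneven between the groups. On cold array 1 it was above that of Cy3 (64.0% against 59.4%), and on the other 9 arrays below it. Of the genes past the unadjusted 0.01, 39.7% were lower in cold in the loess ratio (2272 genes), 44.3% on Cy3 alone, 57.5% with the scanner's processed signals, 53.6% in the authors' table and 81.5% with median centring.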

How the data were processed

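PBMC RNA of 6 control and 4 cold ferrets was measured on 10 custom 2-colour Agilent arrays, all on separate slides and scanned on 1 day. The authors deposited spot intensities from Agilent Feature Extraction 10.7.3.1, not yet normalised, with flags for spots above background. A table of the authors, also deposited, gives a log2 value for each target sequence, and its differences between arrays followed log2 Cy3 less Cy5 (r of 0.997 to 1.00), with array medians of 7.87 to 8.78, so that the constants added to it are unknown. The Cy5 pool held PBMC and other tissues. Median intensities were corrected by normexp (offset 50), without control spots, and normalised by loess (span 0.3, 4 iterations) in limma 3.58.1 under R 4.3.3. Outlier spots were left out, and spots and then probes of a gene averaged. The filter on dim probes required Cy3 above background in a share of 0.5 of a probe's spots on 4 arrays or more (111049 probes). Genes were named through the RefSeq table of assembly ASM1176430v1.1. Cold and control were compared with lmFit and eBayes over all genes and Benjamini-Hochberg adjustment at 0.05; the methods' threshold is 0.01, unadjusted. The test was checked on simulated data. The members, 8 pathway lists and 9 marker lists were chosen with earlier results of these data known. Named from the lists were genes past 0.01 (at most 4 a direction), otherwise those with the lowest p, and the known partners. Genes named only for a call on Cy3 alone (ICAM2, CX3CR1, CCR4, STK26, RAC2, PREX1, KLF5, CD3E, CD3G, CD4 and CD27) were chosen after their values were seen. Alternatives are given in the closing section. The number of arrays limits the precision of every value.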

Additional observations from a re-analysis of the deposited data

Results flagged for a closer look

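One value stood far from the others of its group, by a rule that chance meets in about 1 of 20 groups, among 50 groups examined (25 genes, control and cold). CXCR3 read 0.33 on cold array 3, while the other 3 cold arrays lay between 1.24 and 1.42. The same array had the lowest cold values of CCR7, S1PR1, CCR6, ITGAL and the T cell mean.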

How the results depend on the processing

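CCR7, S1PR1, CXCR4, CCR6 and ITGA4 had negative changes under all 25 alternatives, CCR7 between -1.78 and -0.43 and S1PR1 between -1.31 and -0.26. CCR7 passed 0.01 in 13 of them and S1PR1 in 6. CXCR3 turned negative with the scanner's processed signals (-0.31), median centring (-0.68), Cy3 alone (-0.31 in limma and in the methods' t-test) and the authors' table (-0.27), and ranged from -0.00176 to 0.36 with 1 array left out. ITGAL turned negative under the same settings (-0.37, -0.42, -0.40 in both tests, and -0.051 in the authors' table) and ranged from -0.00364 to 0.11. Under median centring SKAP2 was -0.00107, FERMT3 -0.22, ITGB1 -0.26 and ITGB2 -0.89, and in the authors' table ITGB2 was -0.31. Relative to the median of all genes under median centring (-0.43), 6 of the 7 receptors were lower. The receptors past 0.01 were CCR7 and S1PR1 (2) with the scanner's processed signals and the authors' table, S1PR1 in place of CCR7 with median centring and Cy3 alone, none (0) with no filter on dim probes and in the methods' t-test, and 0 to 2 with 1 array left out. The methods' t-test on Cy3 alone and the setting without cold array 3 on Cy3 alone were chosen after seeing the data. The median change of the receptors was -1.16 with median centring, -0.65 in the authors' table, and -0.41 to -0.12 with 1 array left out. All genes past 0.01 numbered 1505 with the scanner's processed signals, 1163 with median centring, 1088 in the authors' table, and 1275 to 3386 with 1 array left out, 1275 without cold array 3. Past the adjusted 0.05 were 741 on Cy3 alone, 115 with the filter on all 10 arrays, 5 with the slide position as a block, and 0 to 1272 with 1 array left out (1272 without cold array 2, 633 without control array 5, 12 without cold array 1). Samples with the same replicate number had deviations from the group means correlated at -0.30, 0.54, 0.10 and -0.19. These values are too few to show whether the numbers pair the samples. With the replicate number as a block, from which control arrays 5 and 6 drop out, the median change was -0.40, CCR7 -0.65 (limma p 0.00154), CXCR4 -0.62, CCR6 -0.48 (p 0.0511), ITGA4 -0.04, and 2459 genes passed 0.01. Under this block ITGB1 passed 0.01 (0.58, p 0.00292), and FN1 (p 0.0196), CCL19 (p 0.0109), FERMT3 (p 0.0187) and SKAP1 (p 0.0237) no longer did. The cause of these shifts was not tested. The reference channel was dim for S1PR1, CCR6 and ITGAL, and its part in their changes was not tested. With probes also required above background in Cy5 on 4 arrays, their changes were -0.39, -0.25 and 0.05.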
